A study of Saccharomyces cerevisiae with 12 samples.

Results

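Cryptic unstable transcripts (CUTs) are short non-coding RNAs of budding yeast that are usually seen only when nuclear RNA decay is impaired. The deposited table of normalized densities had 10891 rows, of which 925 were CUTs, and 634 of these CUTs had a mean density of 0.01 or more over the 12 libraries. These 634 CUTs, chosen by that mean density, are described here across 6 strains. A density is the number of reads per nucleotide of a transcript after scaling of its library, so that levels of transcripts of different length can be compared. Since the choice used their levels, mean levels are given as a description. The CUTs just inside the threshold were CUT384, CUT625 and CUT838, with mean densities of 0.010005, 0.0101 and 0.0101, and those just outside it were CUT919, CUT776 and CUT328, with 0.00994, 0.00988 and 0.00987.

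CUTs arise where RNA polymerase II starts at nucleosome-free promoters and gene ends, often in the direction opposite to a gene. Their transcription is ended early by the Nrd1-Nab3-Sen1 complex, after which the TRAMP complex adds a short tail and the nuclear exosome with Rrp6 degrades them. Stable unannotated transcripts that escape this route to the cytoplasm can be decapped and degraded by Xrn1, and those that accumulate without Xrn1 are called XUTs, while transcripts that lengthen without Nrd1 are called NUTs.

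The study measured strand-specific total RNA, depleted of ribosomal RNA, from the Saccharomyces cerevisiae strain BY4741, a haploid of mating type a (MATa) with leu2, his3, ura3 and met15 deletions, grown at 30°C in rich medium (YPD) to mid-log phase. There were 5 deletion strains, each with 1 helicase gene replaced by kanMX4, and the unmodified parent as wild type (WT), with 2 libraries per strain. Ecm32 is a helicase that binds translation termination factors, Slh1 acts on stalled ribosomes, Ski2 feeds RNA to the cytoplasmic exosome, Dbp1 is a relative of the translation initiation helicase Ded1, and Dhh1 activates decapping. The strains were ecm32-delta, slh1-delta, ski2-delta, dbp1-delta, dhh1-delta and WT, and all 6 carried the same auxotrophic markers. The labels do not say whether each deletion strain was more than 1 clone.

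The 12 libraries held between 8600202 and 17234312 reads on the features of the table. ECM32, SLH1 and DHH1 had 0.319%, 0.0283% and 2.17% of their WT density in the strain that lacks them. SKI2 had 0.110% of its WT density in the libraries labelled dbp1-delta and 146% in those labelled ski2-delta, whereas DBP1 had 150% in the libraries labelled dbp1-delta and 3.68% in those labelled ski2-delta. These 4 libraries therefore went against their labels, and they are called libraries labelled ski2-delta or dbp1-delta throughout. The a-cell receptor gene STE2 had a density between 3.44 and 4.85 in every library, and among the genes deleted in the background MET17 (met15) had 0 and LEU2 and URA3 had at most 0.000869 and 0.00302. HIS3 had 0.398 to 0.648, and the his3 allele of this background removes only a part of that gene.

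CUTs were a small and low class in every library. The 634 CUTs together had 148172 reads in the 12 libraries, and the median CUT had between 6 and 13 reads per library. Counting error alone gives a count of 13 an exact Poisson 95% interval of 6.92 to 22.2. Of the 634 CUTs, 580 had at least 1 read in every library, and 7 had 0 reads in both libraries of some strain. All 634 entered the tests across 9497 features.

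The CUTs spanned a wide range of levels. The median mean density was 0.0235, with quartiles of 0.0148 and 0.0403, and 266 CUTs lay under 0.02. Only 51 CUTs reached 0.1 and 6 reached 1. The 5 highest were CUT567 at 4.67, CUT484 at 4.03, CUT015 at 1.67, CUT496 at 1.54 and CUT155 at 1.29, and they held 28.1% of all reads on the CUTs and 32.2% of their summed density. The counted lengths, recovered from the values, ran between 105 and 3433 nucleotides with a median of 349. Of the 634 lengths, 610 (96.2%) were 1 more than a multiple of 8, against 13.3% of XUT and 12.9% of NUT lengths. The median standard deviation of a CUT between replicates of a strain was 0.32 on the log2 scale, and the median standard deviation between the 6 strain means was 0.41. Among the 51 CUTs at 0.1 or more the median replicate standard deviation was 0.23.

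The 5 highest CUTs did not share a pattern across strains. CUT567 had densities of 3.38 and 3.42 in dhh1-delta, the lowest of any library, against 6.29 and 6.77 in WT, the highest of any library. CUT484 had 3.25 and 2.42 in dhh1-delta, against 4.11 and 4.96 in WT, and its replicates differed widely, with 2.66 and 5.12 in the libraries labelled dbp1-delta. CUT015 had 1.33 and 1.26 in dhh1-delta, against 1.71 and 1.98 in WT, but the first slh1-delta library, at 1.32, overlapped dhh1-delta. CUT155 was the most even of the 5, with 1.48 and 1.38 in dhh1-delta, against 1.22 and 1.26 in WT and 1.06 to 1.53 in the other 8 libraries.

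CUTs were lowest in dhh1-delta. The median density of the 634 CUTs was 0.0125 and 0.0124 in the dhh1-delta libraries, 0.0243 and 0.0223 in ecm32-delta, and 0.0206 and 0.0225 in slh1-delta. It was 0.0256 and 0.0319 with the ski2-delta label and 0.0248 and 0.0312 with the dbp1-delta label, against 0.0216 and 0.0246 in WT. Both dhh1-delta libraries lay below the other 10 libraries, and all 4 libraries labelled ski2-delta or dbp1-delta lay above both WT libraries. With 2 libraries against 2, an exact two-sided permutation test cannot give a p below 0.333, so no test of these medians was made. In bulk RNA, fewer cells that make a transcript and less of it per cell cannot be told apart.

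**Figure D1:**
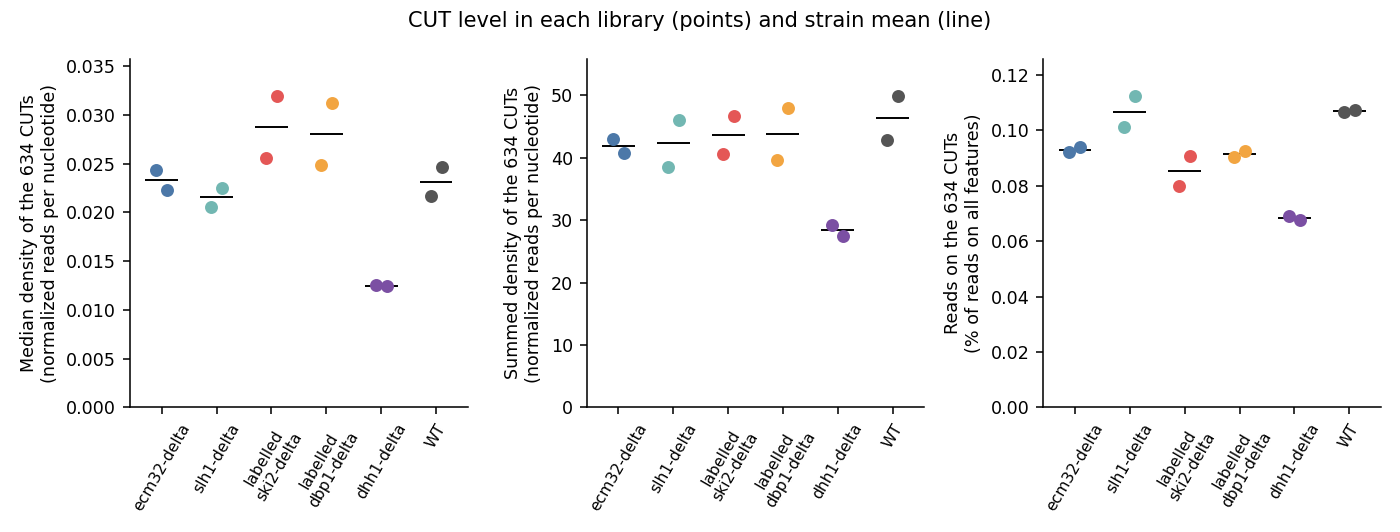
Median density, summed density and share of reads of the 634 CUTs in each library (points, 2 per strain) with the strain mean (line), all on axes that start at 0. The 2 dhh1-delta libraries are the lowest in all 3 panels, with a median density of 0.0125 and 0.0124 against 0.0216 and 0.0246 in WT.

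The share of reads, which does not depend on the scaling factors, was also lowest in dhh1-delta. CUTs took 0.0691% and 0.0677% of reads in the dhh1-delta libraries, against 0.107% in each WT library. The other 8 libraries lay between 0.0798% in the first library labelled ski2-delta and 0.112% in the second slh1-delta library. By this measure all 4 libraries labelled ski2-delta or dbp1-delta, at 0.0798% to 0.0927%, lay below both WT libraries, whereas their median densities lay above them. The summed density was 29.2 and 27.5 in dhh1-delta, against 42.9 and 49.9 in WT. Without the 5 highest CUTs it averaged 18.4 ± 0.399 in dhh1-delta and 30.0 ± 2.98 in WT (SD, n = 2 each). XUTs were also a smaller share of reads in dhh1-delta, at 0.180% to 0.183%, against 0.254% to 0.330% in the other 10 libraries. By share of reads NUTs went the other way, at 5.90% and 5.49% in dhh1-delta, against 4.35% to 5.25% in the other 10 libraries. Most single NUTs nevertheless had a negative log2 fold change in dhh1-delta against WT, 902 of 1103 tested, against 6024 of all 9497 features. Of the NUTs, 296 (26.8%) were called lower and 37 (3.35%) higher, against 24.3% and 13.7% of all features.

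By strain mean, 466 of the 634 CUTs (73.5%) were lowest in dhh1-delta, whereas 51.4% of all features tested were. The highest mean was that of the ski2-delta label for 244 CUTs (38.5%, against 48.3% of all features), of the dbp1-delta label for 213 (33.6%, against 30.1%) and of dhh1-delta for 19 (2.997%, against 13.0%). It was that of ecm32-delta for 50 (7.89%, against 3.12%), of slh1-delta for 23 (3.63%, against 1.30%) and of WT for 85 (13.4%, against 4.31%). In a limma F-test over the 6 strains, 343 CUTs (54.1%) passed a Benjamini-Hochberg adjusted p of 0.05, against 67.6% of all features. The count fell to 220 without the first and 215 without the second dhh1-delta library. The 5 CUTs with the smallest p in that test were CUT648, CUT509, CUT122, CUT433 and CUT884, and in each of them dhh1-delta was the lowest strain or, for CUT122, the highest.

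**Figure D2:**
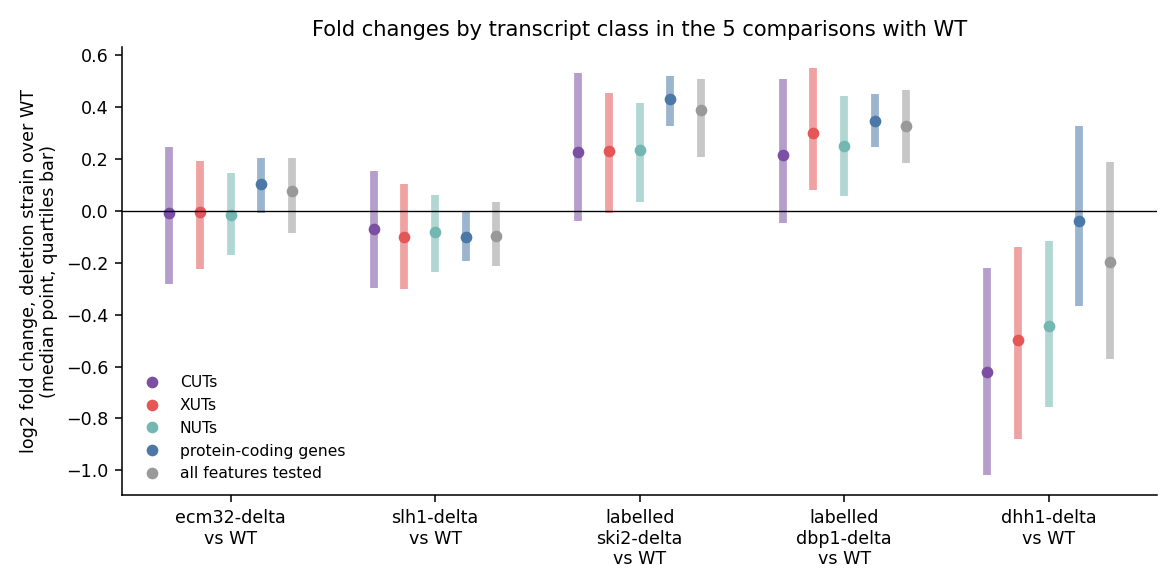
Median log2 fold change (point) and quartiles (bar) of CUTs, XUTs, NUTs, protein-coding genes and all features tested in each deletion strain over WT. In dhh1-delta the CUT median of -0.62 lies below those of XUTs (-0.50), NUTs (-0.44) and protein-coding genes (-0.04). For the ski2-delta and dbp1-delta labels the CUT medians (0.23 and 0.22) lie below those of all features (0.39 and 0.33), which are -0.01 and 0.01 with factors from protein-coding genes. The medians of XUTs (0.23 and 0.30) and NUTs (0.23 and 0.25) for these labels also lie below those of all features.

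The comparison of dhh1-delta with WT asks how transcripts change without the decapping activator Dhh1. Here 243 of the 634 CUTs fell and 11 rose in dhh1-delta, with a median log2 fold change of -1.09 among those that fell and 1.21 among those that rose. These counts are 38.3% and 1.74% of the CUTs, against 24.3% and 13.7% of all 9497 features. Of the CUTs that fell, 151 did so by 2-fold or more, and all 243 had both dhh1-delta libraries below both WT libraries. Regardless of the test, both dhh1-delta libraries lay below both WT libraries for 419 CUTs (66.1%, against 47.6% of all features) and above them for 35 (5.52%, against 24.5%). The number of CUTs called went down to 144 without the second and 153 without the first dhh1-delta library, and to 150 without the second WT library, and was 224 without the first WT library. With quantile normalization, 115 CUTs fell and 30 rose. Fold changes are on the log2 scale after adding 0.00508 to each density, which understates changes of low transcripts.

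Over all 634 CUTs the median log2 fold change in dhh1-delta was -0.62, against -0.20 over all features, and 534 CUTs had a negative value. So did 6024 of all 9497 features, 1162 of 1419 XUTs and 902 of 1103 NUTs. The difference of the CUT median from that of all features was -0.42, and it was -0.16 with quantile normalization. The 196 CUTs under 0.01 that could be tested had a median of -0.33, and XUTs, NUTs and protein-coding genes had medians of -0.50, -0.44 and -0.04. The share of CUTs that fell was 28.6% among the 266 with a mean density under 0.02, 42.3% among the 317 between 0.02 and 0.1, and 64.7% among the 51 at 0.1 or more, whereas the median fold changes of these classes were -0.58, -0.65 and -0.65. The share that fell therefore differed between level classes more than the size of the change did. By length it was 40.1%, 37.5% and 38.3% for CUTs under 200, from 200 to under 500, and of 500 nucleotides or more.

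**Figure D3:**
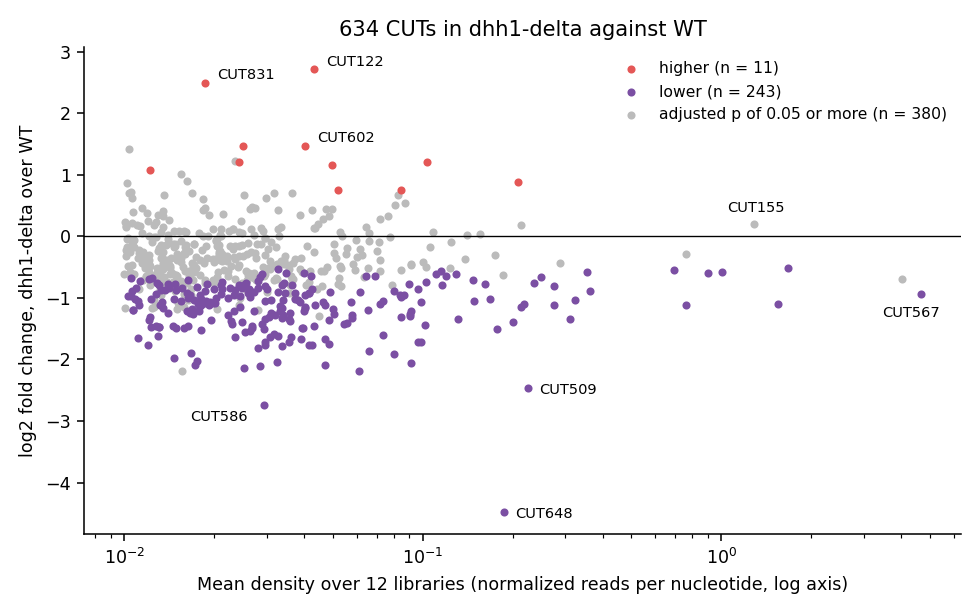
Log2 fold change of each of the 634 CUTs in dhh1-delta over WT (vertical axis) against its mean density over the 12 libraries (horizontal log axis), with CUTs that rose, fell or did not pass the limma test in separate colours. The 243 CUTs that fell spread over all levels, with CUT648 lowest at -4.48, and the 11 that rose are led by CUT122 at 2.71.

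CUT648 had the largest fall. Its density was 0.00982 and 0.00500 in the dhh1-delta libraries, from 2 and 1 reads, against 0.238 and 0.304 in WT, from 29 and 51 reads. In the other 8 libraries it lay between 0.146 in the first slh1-delta library and 0.269 in the first ecm32-delta library, so that both dhh1-delta libraries were far below all 10 others. The log2 fold change was -4.48 ± 0.23 (SE, limma adjusted p = 2.79e-07). Against the other 4 deletion strains it was -4.12 ± 0.19 (limma adjusted p = 5.47e-08).

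CUT509 was a CUT of higher level that fell in the same strain. It had densities of 0.0510 and 0.0289 in dhh1-delta, against 0.241 and 0.230 in WT, and between 0.241 and 0.307 in the other 8 libraries. No library of another strain came near the dhh1-delta values. Its log2 fold change was -2.46 ± 0.19 (SE, limma adjusted p = 3.66e-06). CUT586 had 1 read in the first and 0 in the second dhh1-delta library, against 5 and 8 in WT, and a log2 fold change of -2.74 ± 0.31 (SE, limma adjusted p = 5.22e-05). CUT716 had densities of 0.0333 and 0.0424 in dhh1-delta and 0.181 and 0.164 in WT (log2 fold change -2.05 ± 0.23, SE, limma adjusted p = 5.95e-05), and the 4 libraries labelled ski2-delta or dbp1-delta lay between these, at 0.0493 to 0.0780. The other 6 of the 10 largest falls were CUT127, CUT635, CUT172, CUT447, CUT238 and CUT112, with log2 fold changes between -2.04 and -2.19. Of the 10, 9 passed the test whichever of the 4 dhh1-delta and WT libraries was left out. CUT172 passed in 3 of these 4 fits, with a largest adjusted p of 0.0634.

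CUT433 and CUT884 had some of the most regular differences across strains. CUT433 had densities of 0.0798 and 0.0744 in dhh1-delta, against 0.222 and 0.234 in WT and 0.147 to 0.241 in the other 8 libraries. CUT884 had 0.00831 and 0.00966 in dhh1-delta, against 0.0317 and 0.0374 in WT, and its highest values were 0.0590 and 0.0607 in the libraries labelled ski2-delta. In both CUTs the dhh1-delta libraries did not overlap any other strain.

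Among the other large falls the overlap with further strains varied. CUT635 had densities of 0.00709 and 0.00541 in dhh1-delta, against 0.0384 and 0.0515 in WT, and the other 8 libraries lay between 0.0174 and 0.0330, below WT and above dhh1-delta. CUT127 had 0.0104 and 0.0316 in dhh1-delta, against 0.0951 and 0.113 in WT, and the first slh1-delta library, at 0.0359, came close to the second dhh1-delta library. CUT447 had 0 and 0.0126 in dhh1-delta, against 0.0414 and 0.0301 in WT, and its highest values were 0.104 and 0.0811 in the libraries labelled dbp1-delta. CUT238 had 0.00468 and 0 in dhh1-delta, against 0.0273 and 0.0227 in WT, with the first slh1-delta library next at 0.00695. CUT447 and CUT238 rest on 2 reads each in dhh1-delta, against 8 and 15 in WT.

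Only 11 CUTs rose in dhh1-delta, and 5 of the 10 named here (CUT122, CUT831, CUT602, CUT166 and CUT866) passed the test whichever dhh1-delta or WT library was left out. CUT122 had densities of 0.133 and 0.140 in dhh1-delta, against 0.0173 and 0.0158 in WT, with the libraries labelled dbp1-delta next at 0.0435 and 0.0436. Both dhh1-delta libraries lay above all others, and the log2 fold change was 2.71 ± 0.24 (SE, limma adjusted p = 1.11e-05). CUT831 had 0.0443 and 0.0401 in dhh1-delta, from 18 and 16 reads, against 0 and 0.00896 in WT, from 0 and 3 reads. Its log2 fold change was 2.49 ± 0.47 (SE, limma adjusted p = 0.00182), but the second library labelled dbp1-delta, at 0.0505, lay above both dhh1-delta libraries.

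CUT602 had densities of 0.0998 and 0.0818 in dhh1-delta, against 0.0325 and 0.0266 in WT, and no other library exceeded 0.0454. Its log2 fold change was 1.47 ± 0.20 (SE, limma adjusted p = 0.000229). CUT166 had 0.195 and 0.190 in dhh1-delta, against 0.0714 and 0.0897 in WT, and CUT866 had 0.338 and 0.296, against 0.158 and 0.183. Both dhh1-delta libraries of these CUTs also lay above all 10 others. CUT887, CUT763, CUT543, CUT056 and CUT193 had log2 fold changes between 0.75 and 1.47 and lost the call in at least 2 of the 4 fits that left out a library.

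**Figure D4:**
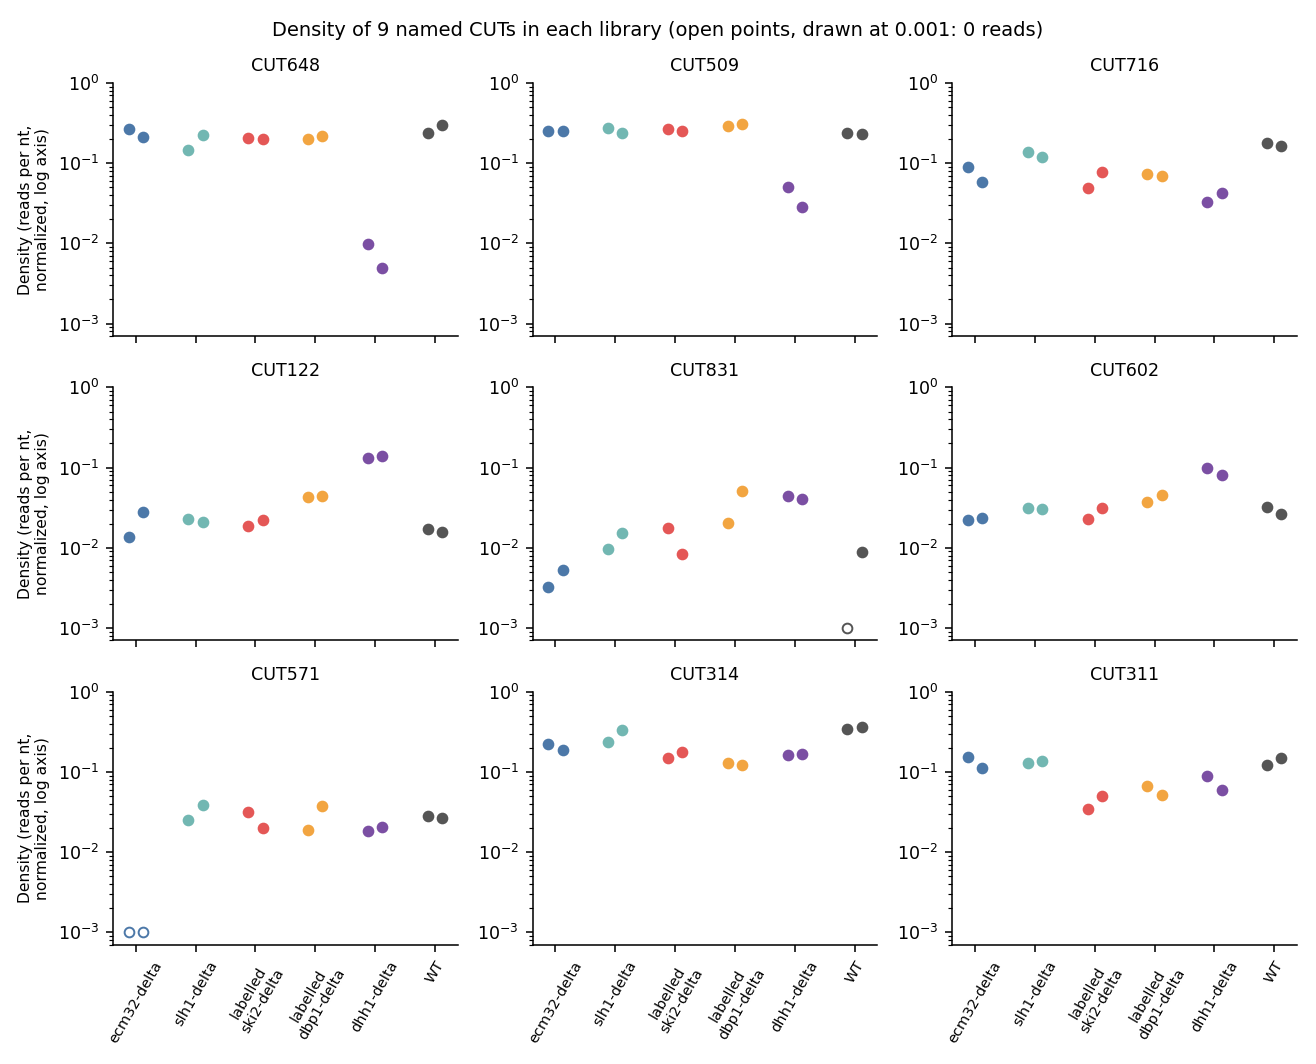
Density in each library (points, 2 per strain, log axis) of 9 CUTs that differed in at least 1 strain, with libraries of 0 reads as open points at the lower end of the axis. CUT648, CUT509 and CUT716 are lowest in dhh1-delta, CUT122, CUT831 and CUT602 are highest or among the highest there, CUT571 has 0 reads in both ecm32-delta libraries, and CUT314 and CUT311 are lower in the libraries labelled dbp1-delta and ski2-delta than in WT.

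The difference between dhh1-delta and the other deletion strains was tested directly. Against the mean of the other 4 deletion strains, 366 CUTs were lower and 10 higher in dhh1-delta (57.7% and 1.58%, against 45.7% and 11.0% of all features), and the total was 239 without the second dhh1-delta library. With quantile normalization it was 107 lower and 38 higher. Against single strains, 228 CUTs were lower than in ecm32-delta (36.0%, against 28.3% of all features) and 186 were lower than in slh1-delta (29.3%, against 15.3%). Against the libraries labelled ski2-delta 365 were lower (57.6%, against 53.1%), and against those labelled dbp1-delta 352 were lower (55.5%, against 50.0%). CUT417 had 0 reads in both dhh1-delta libraries, against 56 reads over the 8 libraries of the other deletion strains, which is at least 6.08-fold lower when 3 reads over both libraries are taken as the floor. In WT it had 4 and 4 reads. CUT543 did not pass in every fit against WT, but against the other deletion strains it was higher in each of 10 fits that left out a library, with densities of 0.0972 and 0.0989 in dhh1-delta, against 0.0259 to 0.0601 in the other deletion strains (log2 difference 1.25 ± 0.25, SE, limma adjusted p = 0.00144).

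For the ski2-delta and dbp1-delta labels, more CUTs rose than fell against WT with the deposited scaling, but most of those called fell with 3 other scalings. In the libraries labelled ski2-delta 58 CUTs rose and 18 fell (9.15% and 2.84%, against 39.3% and 0.737% of all features). In those labelled dbp1-delta 30 rose and 11 fell (4.73% and 1.74%, against 17.2% and 0.411% of all features). Over all features the median fold changes were 0.39 and 0.33 on the log2 scale, and over the CUTs they were 0.23 and 0.22, so that relative to all features the CUT medians were -0.16 (-0.08 without the first library labelled ski2-delta) and -0.11. With factors from protein-coding genes all 19 CUTs called for the ski2-delta label fell, and of 11 for the dbp1-delta label 10 fell and 1 rose. With spike-in factors 2 rose and 28 fell, and 3 rose and 10 fell, and with quantile normalization 1 rose and 17 fell, and 1 rose and 14 fell. The spike-in counts rest on the first WT library, and without it they were 1 that rose and 4 that fell for the ski2-delta label and 2 that rose and 2 that fell for the dbp1-delta label. The total of 76 CUTs for the libraries labelled ski2-delta was 4 without the first WT library and 9 without the second library labelled ski2-delta, and the total of 41 for those labelled dbp1-delta was 3 without the first WT library and 3 without their own second library. The mean-density threshold also favours CUTs high in these libraries: 24 CUTs would lie under 0.01 without the libraries labelled ski2-delta, where they were highest, and 16 without those labelled dbp1-delta, against 2 without WT.

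The CUTs that fell in these 4 libraries were more often of high level. Of the 51 CUTs at 0.1 or more, 7 (13.7%) fell in the libraries labelled ski2-delta, against 3 (1.13%) of the 266 under 0.02. In those labelled dbp1-delta 5 (9.80%) fell, against 2 (0.752%) of the 266. Rises were 0 of the 51 and 24 (9.02%) of the 266 for the ski2-delta label, and 3 (5.88%) and 15 (5.64%) for the dbp1-delta label. The median log2 fold changes of these 2 level classes were -0.08 and 0.27, and -0.10 and 0.25. Of the 317 CUTs between 0.02 and 0.1, 34 (10.7%) rose and 8 (2.52%) fell for the ski2-delta label, with a median of 0.25. For the dbp1-delta label 12 (3.79%) rose and 4 (1.26%) fell, with a median of 0.23. The classes use the same mean density as the threshold, which favours CUTs high in these libraries. Rises under 0.02 are therefore not independent of the choice of CUTs. In dhh1-delta the share called lower also went up with level, at similar medians. CUT314 had densities of 0.150 and 0.180 with the ski2-delta label and 0.130 and 0.124 in those labelled dbp1-delta, against 0.347 and 0.366 in WT. All 4 lay below both WT libraries, with log2 fold changes of -1.09 ± 0.16 and -1.45 ± 0.16 (SE, limma adjusted p = 0.00618 and 0.0015), and both calls held whichever library was left out. In dhh1-delta CUT314 had 0.163 and 0.166.

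CUT311 was lowest in the libraries labelled ski2-delta. It had densities of 0.0348 and 0.0501 there, against 0.123 and 0.151 in WT, and no library of another strain was lower than 0.0514. Its log2 fold change was -1.59 ± 0.24 (SE, limma adjusted p = 0.00618), and against the other 4 deletion strains it was -1.07 ± 0.19 (SE, limma adjusted p = 0.0029). CUT677 was lowest in the libraries labelled dbp1-delta, at 0.583 and 0.663, against 1.16 and 1.26 in WT, with a log2 fold change of -0.96 ± 0.12 (SE, limma adjusted p = 0.00422). CUT496, among the 5 CUTs of highest level, had 0.708 and 0.892 with the ski2-delta label and 0.787 and 1.15 in those labelled dbp1-delta, against 1.64 and 2.80 in WT. The WT libraries differed from each other here, and the fall in the libraries labelled dbp1-delta (limma adjusted p = 0.0258) was lost in each of the 4 fits that left out a library.

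The CUTs with the largest rises in these libraries had few reads. CUT463 had the largest rise in the libraries labelled ski2-delta, from 6 and 12 reads there against 4 and 0 in WT, and a log2 fold change of 2.37 ± 0.67 (SE, limma adjusted p = 0.0192). The other 9 largest rises there lay between 1.21 and 1.75 on the log2 scale. None of the 10 passed with factors from protein-coding genes (adjusted p of 0.0822 or more), and each lost its call in at least 2 of the 4 fits that left out a library. CUT056 had the largest rise in the libraries labelled dbp1-delta, with densities of 0.0222 and 0.0372 there, against 0 and 0.00483 in WT. Its log2 fold change was 2.26 ± 0.36 (SE, limma adjusted p = 0.0108), and it was the 1 CUT that also rose with factors from protein-coding genes (adjusted p = 0.0352). CUT122, the leading CUT of dhh1-delta, rose in the libraries labelled dbp1-delta as well (log2 fold change 1.17 ± 0.24, SE, limma adjusted p = 0.0199), though not with those factors (adjusted p = 0.178).

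The libraries labelled dbp1-delta and ski2-delta were hardly told apart by their CUTs. In the test of the difference between them, 0 of 634 CUTs passed in limma-trend, 71 had an unadjusted p under 0.05, and 0 passed in limma-voom on the recovered reads. Of all 9497 features, 2 (0.0211%) passed in limma-trend and 737 had an unadjusted p under 0.05. Leaving out the second library labelled ski2-delta gave 1 CUT. A p above the threshold does not show that the 2 strains are alike in these CUTs.

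In ecm32-delta the single CUT that passed the test was CUT571, which fell. It had 0 reads in both ecm32-delta libraries, against 10 and 13 in WT and 7 to 26 in the other 8 libraries. That is at least 9.14-fold lower than in WT when 3 reads over both ecm32-delta libraries are taken as the floor. The fitted log2 fold change was -2.67 ± 0.31 (SE, limma adjusted p = 0.00839). The call was lost when any of the ecm32-delta or WT libraries was left out (largest adjusted p 0.137), which gave 0 CUTs each time. Against the other 4 deletion strains CUT571 was lower in each of 10 such fits, with a log2 fold change of -2.58 ± 0.24 (SE, limma adjusted p = 0.00023), at least 8.79-fold. In all, 0 CUTs rose and 1 fell (0.158%), against 0.0316% and 0.0421% of all features. At an unadjusted p under 0.05 there were 76 CUTs, against 825 of all 9497 features, and 3 CUTs were called by limma-voom.

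The rows of the deposited table follow gene starts along the genome, and CUT571 is listed between ECM32, the deleted gene, and BMH1. ECM32 lies on chromosome V at 541690 to 545055 and BMH1, a 14-3-3 protein gene, at 545611 to 546414 (both forward strand, build R64). XUT1162, listed between the same genes, also had 0 reads in both ecm32-delta libraries, against 20 and 29 in WT and 16 to 38 in the other 8 libraries. BMH1 had a mean density of 9.04 in ecm32-delta and 8.08 in WT. The row order does not show whether CUT571 or XUT1162 overlaps ECM32. Nor is it known from these rows whether the deletion removed part of their counted sequence. How far such removal, the deletion cassette or the loss of ECM32 transcription bears on CUT571 was not tested. The next CUTs by p in ecm32-delta did not pass. CUT715 had 1 and 2 reads in ecm32-delta, against 12 and 10 in WT (limma adjusted p = 0.0735), and CUT732 had densities of 0.0557 and 0.0690, against 0.143 and 0.152 (limma adjusted p = 0.142).

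In slh1-delta 0 CUTs passed against WT in limma-trend and 0 in limma-voom. At an unadjusted p under 0.05 there were 50 CUTs, against 668 of all 9497 features. Of all features, 0 and 0.0105% rose and fell. The CUTs with the smallest p were CUT208, with 0 and 0 reads in slh1-delta and 2 and 2 in WT (limma adjusted p = 0.169), CUT635 (limma adjusted p = 0.349) and CUT664 (limma adjusted p = 0.365). The median log2 fold change of the CUTs was -0.07, against -0.09 for all features.

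Each strain was also set against the mean of the other 4 deletion strains, a comparison that shares no WT library. In slh1-delta 18 CUTs were higher and 17 lower (2.84% and 2.68%, against 0.526% and 31.3% of all features), with CUT716, CUT715, CUT538 and CUT314 leading those higher, at log2 differences of 1.07, 1.03, 0.94 and 0.79. With factors from protein-coding genes 25 were higher and 1 lower, and with spike-in factors 3 were called, all lower. The total of 35 was 4 without the first and 6 without the second slh1-delta library. In ecm32-delta 7 were higher and 10 lower (1.10% and 1.58%, against 0.821% and 4.53%), a total of 17 that was 3 without the first and 5 without the second ecm32-delta library, 11 without the first slh1-delta library, and 10 and 11 without the first and the second dhh1-delta library. With factors from protein-coding genes 25 were higher and 11 lower in ecm32-delta, and with spike-in factors 7 were higher and 4 lower. In the libraries labelled ski2-delta 131 were higher and 7 lower (20.7% and 1.10%, against 41.0% and 0.874%), a total that was 40 without their second library, and with factors from protein-coding genes 10 were higher and 14 lower. In those labelled dbp1-delta 77 were higher and 4 lower (12.1% and 0.631%, against 23.1% and 0.484%), a total that was 3 without their second library, and with factors from protein-coding genes 13 were higher and 9 lower. These contrasts hold dhh1-delta on the other side, where most CUTs were lower.

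A few of these CUTs stood apart from every library of the other deletion strains. The mean-density threshold used the same libraries, which favours CUTs high in a single strain and low elsewhere. The test of CUT374, which was low elsewhere, is therefore not independent of the choice of CUTs. CUT374 had densities of 0.0369 and 0.0354 in the libraries labelled ski2-delta, against at most 0.0129 in the other deletion strains and 0.00867 and 0.0126 in WT, and the log2 difference of 1.80 ± 0.33 (SE, limma adjusted p = 0.00332) passed in each of 10 fits that left out a library. CUT083 had 0.0760 and 0.0799 in the libraries labelled dbp1-delta, against 0.0119 to 0.0464 in the other deletion strains (log2 difference 1.44 ± 0.23, SE, limma adjusted p = 0.00401, passed in 9 of 10 such fits). CUT362 had 0.0124 and 0.0120 in ecm32-delta, against 0.0220 to 0.0413 in the other deletion strains (log2 difference -1.01 ± 0.15, SE, limma adjusted p = 0.00329, passed in 8 of 10 such fits). CUT314 had 0.239 and 0.337 in slh1-delta, against 0.124 to 0.220 in the other deletion strains and 0.347 and 0.366 in WT, and passed in 9 of 10 such fits (limma adjusted p = 0.00426).

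The genes listed next to a CUT put its values in context. The table holds no coordinates for CUTs, but 99.8% of 5884 consecutive gene rows run in order of their R64 start. All 634 CUTs are listed between protein-coding genes of 1 chromosome, 478 of them in the row next to such a gene. Neither the strand nor the exact position of a CUT is known from this, nor whether it overlaps a listed gene. The 3' and 5' sides given below follow from row order and the strand of the gene. These neighbours were looked at after the values had been seen. The CUT median was 3.10% of the density of the higher of its 2 flanking coding genes. That gene had a median density of 4.04 for the 51 CUTs at 0.1 or more, 0.799 for the 317 between 0.02 and 0.1, and 0.692 for the 266 under 0.02.

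Several CUTs were listed on the 3' side of genes that are among the most transcribed in yeast. CUT484 stands between RPL13A and RPP1A, genes of ribosomal proteins with mean densities of 6.54 and 28.4 in dhh1-delta and 8.20 and 30.3 in WT, both with their 3' ends towards it. CUT496 is listed on the 3' side of TPI1, which encodes triose phosphate isomerase (47.7 in dhh1-delta and 50.1 in WT). CUT628 is on the 3' side of TDH3, a glyceraldehyde-3-phosphate dehydrogenase gene (224 in dhh1-delta and 250 in WT), and CUT716 on that of FBA1, the aldolase gene (81.4 in dhh1-delta and 121 in WT). None of these rows shows whether reads of the gene run on into the CUT.

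In dhh1-delta several CUTs of large change stood beside a gene of large change in the same direction. CUT648 is listed on the 3' side of HXT1 (chromosome VIII, 290913 to 292625, reverse strand), a low-affinity glucose transporter gene with a mean density of 0.197 in dhh1-delta and 2.85 in WT (log2 fold change -3.81 ± 0.15, SE, limma adjusted p = 4.1e-08). On its other side HXT4, a high-affinity glucose transporter gene, rose to 2.35 in dhh1-delta, against 0.435 in WT. CUT122 is listed on the 5' side of HSP12 (chromosome VI, 107256 to 107585, forward strand), a stress-induced heat shock protein gene with 0.564 in dhh1-delta and 0.0261 in WT (log2 fold change 4.19 ± 0.20, SE, limma adjusted p = 1.34e-07). CUT602 is on the 3' side of STF2 (chromosome VII, 508110 to 508364, reverse strand), a gene linked to ATP synthase regulation with 1.75 in dhh1-delta and 0.324 in WT. CUT166 is on the 5' side of the enolase gene ENO1 (15.5 in dhh1-delta and 4.71 in WT), and CUT866 on the 3' side of MBF1, a transcription coactivator gene (17.4 in dhh1-delta and 5.51 in WT). CUT586 and CUT127 stand on either side of MIG2, a glucose repressor gene that fell to 0.242 in dhh1-delta, against 0.670 in WT.

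**Figure D5:**
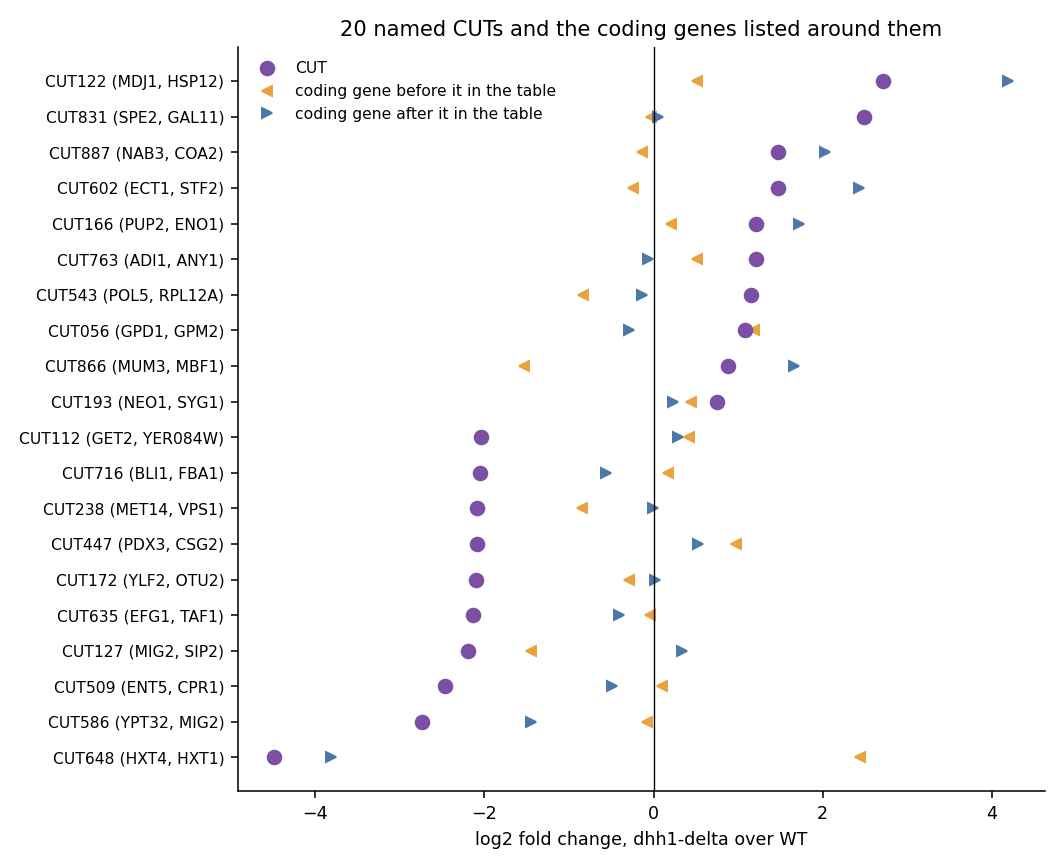
Log2 fold change in dhh1-delta over WT (horizontal axis) of the 20 named CUTs (circles) and of the coding genes listed before (left-pointing triangles) and after them (right-pointing triangles) in the deposited table. HXT1 (-3.81) moves with CUT648 (-4.48) and HSP12 (4.19) with CUT122 (2.71), whereas CUT509 at -2.46 stands between genes that changed by 0.10 and -0.50.

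Other CUTs of large change did not have such a neighbour. CUT509 stands between ENT5, which encodes a clathrin adaptor, and CPR1, the cyclophilin gene, whose log2 fold changes were 0.10 and -0.50 beside the -2.46 of the CUT. CUT831 stands between SPE2 and GAL11, which changed by -0.03 and 0.05. Over all CUTs, 8 of the 11 that rose (72.7%) had a flanking gene that rose, against 176 of the 380 CUTs not called (46.3%). Of the 243 that fell, 106 (43.6%) had a flanking gene that fell, against 129 of the 380 (33.9%), and 97 (39.9%) had one that rose. Spearman's rho over the 634 CUTs between the fold change of a CUT and that of the gene before and after it was 0.02 and 0.13, values that share libraries and scaling and are a description.

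CUTs near small nucleolar RNA (snoRNA) genes were also counted, since snoRNA ends are matured by the same early termination and exosome machinery. A snoRNA stood within 3 rows of 58 CUTs, 15 of them among the 51 at 0.1 or more, and among these 58 were CUT567 (near snR52), CUT314 (snR40), CUT677 (snR128), CUT433 (snR45) and CUT831 (snR81). Of the 58, 37 (63.8%) fell in dhh1-delta, with a median log2 fold change of -0.94, against 206 of the other 576 (35.8%), with -0.60. The 76 snoRNAs themselves had a median of -0.03 there, and 12 (15.8%) fell and 6 (7.89%) rose. Their medians were -0.00106 and 0.00415 for the ski2-delta and dbp1-delta labels, against 0.39 and 0.33 over all features. In the libraries labelled ski2-delta 7 of the 58 (12.1%) fell and 7 (12.1%) rose, against 11 (1.91%) and 51 (8.85%) of the 576. In those labelled dbp1-delta 4 (6.90%) fell and 3 (5.17%) rose, against 7 (1.22%) and 27 (4.69%) of the 576. The 58 CUTs had a median mean density of 0.0427 and a median length of 257 nucleotides, against 0.0228 and 361 for the 576, and what part level, length or the nearby snoRNA has in these shares was not tested.

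Some CUTs share reads with another annotated transcript. Among the 338 CUTs with at least 100 reads over the 12 libraries, 40 (11.8%) had a XUT (23 CUTs) or a NUT (21 CUTs) whose counts, summed over libraries, differed from theirs by 5% or less, and 4 CUTs had a partner with the same counts in every library. For these 40 the CUT and its partner are not separate measurements. Of the 40, 18 (45.0%) fell in dhh1-delta, against 137 of the other 298 (46.0%).

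The transcripts of the factors that act on CUTs were read from 4 lists, beside 13.7% of all features that rose and 24.3% that fell in dhh1-delta. Of protein-coding genes alone, 20.9% rose and 21.7% fell. In dhh1-delta, of 18 genes of the nuclear exosome and its cofactors, 1 rose (RRP40, an exosome cap subunit, log2 fold change 0.42) and 2 fell (MTR4, the TRAMP helicase, at -0.69, and RRP6, the nuclear exonuclease, at -0.42). Of 9 early termination genes 3 rose and 3 fell, among them SSU72, a phosphatase of the RNA polymerase II tail, at 0.94, and SEN1, the termination helicase, at -0.46. NRD1 and NAB3 did not pass (0.13 and -0.13). Of 12 cytoplasmic decay genes 3 rose and 4 fell, with PAT1, a decapping activator, at 0.93, DCP2, the decapping enzyme, at -0.90, and XRN1, the 5' to 3' exonuclease, at -0.60. Of 12 genes of nuclear 5' decay and of chromatin that limits cryptic transcription 1 rose (RPD3, 0.42) and 5 fell, among them HDA1, a histone deacetylase, at -0.69 and RAT1, the nuclear 5' exonuclease, at -0.56.

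The medians of these 4 lists in dhh1-delta were -0.12, -0.13, 0.07 and -0.30. They stand against -0.20 over all features and -0.04 over protein-coding genes, the class of the listed genes. In ecm32-delta 0 genes of the lists passed in limma-trend or limma-voom, with 6, 1, 2 and 2 at an unadjusted p under 0.05, and in slh1-delta likewise 0 passed, with 2, 0, 1 and 0. The genes that passed for the ski2-delta label all rose (13, 7, 10 and 12), as did those for the dbp1-delta label (3, 3, 3 and 4), where 39.3% and 17.2% of all features rose. The lists' medians there lay between 0.31 and 0.50, close to the 0.39 and 0.33 of all features and the 0.43 and 0.35 of protein-coding genes.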

How the data were processed

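Per the submitters' processing notes, reads were trimmed with Trim Galore, aligned to R64 with HISAT2 2.2.0 and counted with featureCounts 2.0.0, and DESeq2 was used. The signal values analysed, normalized densities per feature and library, are as the authors deposited them. Their 6 columns of strain means were used only as a check. All 124137 values above 0 were whole multiples, within 0.01 read, of a library step divided by a length, which gave reads and counted lengths (understated where all counts of a row share a factor). The strain means matched, and no column was left unmapped.

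Values were tested as log2(density + 0.00508), the 10th percentile of values above 0, with limma 3.58.1 (limma-trend, R 4.3.3) in 1 model of 12 libraries and 6 strains, for 9497 features with a mean above that value and no spike-ins. This left 6 residual degrees of freedom. P-values were adjusted by Benjamini-Hochberg over all features, with a threshold of 0.05, and measure the spread between these libraries. Named CUTs were the 5 highest, the 3 on each side of the threshold, up to 10 per direction against WT and up to 5 against the other deletion strains, by fold change among those passed with both libraries on 1 side, and the 5 smallest F-test p-values. CUTs discussed beside these were chosen after their values were seen. Members and lists were chosen with earlier results of these data known. Alternatives were other pseudocounts, filters and scalings, limma-voom on recovered reads, a replicate block, 4 libraries only and leaving out each library. Summaries used Python 3.11.15, pandas 2.3.3, numpy 2.4.6 and scipy 1.17.1. The fit was tested on simulated data. Intervals and floors cover counting error only. CUT coordinates and sequences were not used here.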

Additional observations from a re-analysis of the deposited data

Results flagged for a closer look

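Some CUTs moved in opposite directions in different deletion strains. For 18 CUTs the dhh1-delta libraries fell and the libraries labelled ski2-delta rose against WT, each by the limma test, and the difference between these strains also passed. For 6 CUTs the same held with the libraries labelled dbp1-delta in place of ski2-delta. Both comparisons share the WT libraries, so the test of the difference between the deletion strains, which does not use WT, is the one to read. In that test 53.1% of all features were lower in dhh1-delta than with the ski2-delta label, and 50.0% than with the dbp1-delta label. The share of all features that moved in opposite directions was not counted, so the 18 and the 6 are not shown to be particular to CUTs. CUT884 had a mean density of 0.00899 in dhh1-delta, against 0.0598 in the libraries labelled ski2-delta and 0.0345 in WT, and the difference between the deletion strains was -2.21 ± 0.20 on the log2 scale (SE, limma adjusted p = 1.02e-05). CUT083 had 0.0137 in dhh1-delta, against 0.0779 in the libraries labelled dbp1-delta and 0.0328 in WT, a difference of -2.15 ± 0.29 (SE, limma adjusted p = 0.000136). CUT185 had 0 reads in both dhh1-delta libraries, against 2 and 2 reads in the libraries labelled ski2-delta, 2 and 3 in those labelled dbp1-delta and 1 and 1 in WT. With factors from protein-coding genes all 19 CUTs called for the ski2-delta label against WT fell, and of 11 called for the dbp1-delta label the 1 that rose, CUT056, is not among the 6. The rise of the 18 and of the 6 against WT was therefore lost with these factors, and without the first WT library 1 CUT rose for each label.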

How the results depend on the processing

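Scaling moved most counts of CUTs called. With factors from protein-coding genes the count was 224 for the F-test (343 as reported), 2 for ecm32-delta against WT (1), 19 for the ski2-delta label (76) and 11 for the dbp1-delta label (41). Against the other deletion strains it was 36 for ecm32-delta (17), 24 for the ski2-delta label (138) and 22 for the dbp1-delta label (81). With spike-in factors the F-test gave 145, and the comparisons with WT gave 9 for ecm32-delta, 10 for slh1-delta (0), 30 and 13 for the ski2-delta and dbp1-delta labels, and those with the other deletion strains 11 for ecm32-delta, 3 for slh1-delta (35), 9 and 8 for the 2 labels and 158 for dhh1-delta (376), while the difference between the labels gave 3 (0). With quantile normalization the F-test gave 130, the comparisons with WT 2 for ecm32-delta, 18 and 15 for the 2 labels and 145 for dhh1-delta (254), and those with the other deletion strains 37 for ecm32-delta, 23 for slh1-delta, 19 and 11 for the 2 labels and 145 for dhh1-delta. The first WT library had a spike-in factor of 0.506, against 1.21 for the second. Without it, spike-in factors gave 1 CUT for ecm32-delta, 0 for slh1-delta, 5 and 4 for the 2 labels and 131 for dhh1-delta, and protein-coding factors 0 for ecm32-delta and 8 and 6 for the 2 labels.

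The median of CUTs relative to all features stayed below 0 in dhh1-delta under every setting run: it was -0.42 as reported, -0.33 with 2 times the pseudocount, -0.11 with 0.05 as pseudocount, -0.54 for CUTs at 0.02 or more, -0.16 with quantile normalization, and -0.49 and -0.48 with spike-in and protein-coding factors without the first WT library. For ecm32-delta (-0.09) it was -0.13 for CUTs at 0.02 or more, -0.00424 with quantile normalization and -0.14 with spike-in factors without the first WT library. For the ski2-delta label (-0.16) it was -0.11, -0.085 and -0.053 with protein-coding factors, spike-in factors and quantile normalization, and for the dbp1-delta label (-0.11) it was -0.17 for CUTs at 0.02 or more and -0.058 with spike-in factors.

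Other settings moved fewer counts. A pseudocount of 0.05 gave 0 CUTs for ecm32-delta against WT and 1 for the difference between the labels, limma-voom gave 3 for ecm32-delta and 38 for the ski2-delta label, fits of 4 libraries only gave 4 and 0, and CUTs at 0.02 or more gave 240 for dhh1-delta against the other deletion strains, where fewer CUTs were counted.

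Leaving out a library gave 215 to 352 CUTs for the F-test. Against WT it gave 0 for ecm32-delta, 4 to 76 and 3 to 61 for the ski2-delta and dbp1-delta labels and 144 to 224 for dhh1-delta, and against the other deletion strains 3 to 21 for ecm32-delta, 4 to 41 for slh1-delta, 40 to 155 and 3 to 103 for the 2 labels and 239 to 403 for dhh1-delta. The difference between the labels gave 0 to 1. The relative median ran between -0.21 and -0.079 for the ski2-delta label and between -0.0098 and 0.067 for slh1-delta.

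The replicate numbers did not pair the libraries: over 15 pairs of strains the deviations of same-numbered libraries correlated between -0.0778 and 0.0719. With a replicate block the comparisons with WT gave 1, 0, 85, 45 and 260 CUTs in the order of the strains and the F-test gave 365. Of 1804 alternative values for 107 results on named CUTs, 1381 stayed on the same side of the threshold, 417 lost and 6 gained the call, and none changed direction. The causes of these differences were not tested. Depth limits the precision of single CUTs, which had a median of 6 to 13 reads per library.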
